A study of Mus musculus with 9 samples.

Results

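The axon guidance ligands and receptors were the rows of the footprint count table whose gene symbol names a semaphorin of classes 3 to 7, a plexin, a neuropilin, an Eph receptor, an ephrin, a netrin or netrin-G, the netrin receptors Dcc and Unc5a to Unc5d, a Slit or a Robo. The rule matched 72 of 36410 rows, of which 71 are protein-coding genes and 1, Plxna4os1, is an RNA antisense to Plxna4. Ribosome profiling counts the short RNA fragments that ribosomes shield from nuclease, so a gene's count reports how many ribosomes sat on its mRNAs. The footprints came from 3 immortalized mouse striatal cell lines of strain C57/BL6 per the labels, with 3 libraries each. The control line (STHdhQ7/Q7) carries knock-in huntingtin alleles whose exon 1 encodes 7 glutamines, the HD-het line (STHdhQ7/Q111) carries 1 such allele and 1 that encodes 111 glutamines, and the HD-homo line (STHdhQ111/Q111) carries 2 alleles that encode 111. All cells received cycloheximide, which stalls elongating ribosomes, for 10 min before harvest, and fragments of 26 to 32 nt were kept. Each genotype was 1 line grown in separate rounds of culture, so the effect of the alleles and other differences between the lines cannot be told apart, and p-values measure the spread between cultures of 1 line. No mRNA libraries were used here, so a difference in footprints can come from the amount of mRNA or from its translation, and in a bulk culture fewer cells of a type and less RNA per cell cannot be told apart.

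Axon guidance proteins tell growing neurites and migrating cells where to go. Secreted semaphorins of class 3 bind neuropilins, which signal through A-type plexins and Plxnd1, while membrane-bound semaphorins bind plexins directly. Eph receptors are tyrosine kinases that meet membrane-anchored ephrins on neighbouring cells, netrins act through Dcc and the repulsive Unc5 receptors, and Slits repel cells that carry Robos. Many of these genes guide the axons that enter and leave the embryonic striatum, and many also act in blood vessels and mesenchyme.

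More of the members were higher than lower in HD-het cells, and more were lower than higher in HD-homo cells. Of the 72 members, 54 had enough counts for edgeR's quasi-likelihood test, whose p-values were adjusted over 12678 genes. In HD-het cells 37 of the 54 were higher than in control at an adjusted p under 0.05, where 31.0% of all tested genes were, and 1 (Sema4d) was lower, where 29.1% of all genes were. In HD-homo cells 11 were higher against 23.3% of all genes, and 20 were lower against 22.3%. In the direct comparison of both mutant lines, 6 were higher in the HD-homo than in the HD-het line, where 34.6% of all genes were, and 41 were lower, where 32.8% were. The median log2 fold change of the tested members was 1.11 in HD-het against control, -0.37 in HD-homo against control and -1.61 in HD-homo against HD-het cells, beside 0.02 over all genes tested in each comparison. Across the 3 lines together, any difference was called for 49 of the 54, beside 78.4% of all genes. Both mutant lines were set against the same control libraries. A member can pass the count filter through the line in which it is high, so these counts describe the 54 members and not all 72. With at least 10 counts required in every library, 38 members were tested. Of them 5 were higher in the HD-homo than in the control line, where 21.4% of all genes were.

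Large changes were frequent too. A difference of at least 4-fold past the threshold was found in HD-het against control for 14 members, all higher, beside 7.70% of all genes in either direction. Control libraries together held few counts for some of the 14, with 0 for Unc5d, 1 for Sema3d, 3 for Ntn3 and 4 for Robo1. Such members could pass the count filter only through a line in which they were high. The count of 14 and those below therefore describe the tested members only. In HD-homo against control 7 members were at least 4-fold higher and 8 at least 4-fold lower, beside 9.41% of all genes in either direction. Between the mutant lines, 32.8% of all genes were lower in the HD-homo than in the HD-het line and 34.6% were higher. Of 24 tested receptors, 23 were lower there and 1, Unc5c, was higher. Of 30 tested ligands, 18 were lower and 5 higher.

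Counts summed over all 72 members were 1620, 1750 and 1140 CPM in the control, 2550, 2530 and 3080 CPM in the HD-het and 1650, 1090 and 1630 CPM in the HD-homo libraries, where CPM are counts scaled to a common library total of 1e+06 after TMM normalization. The HD-het libraries therefore lay above all 6 others. Within a line the libraries did not scatter evenly for these genes. Control replicate 3 held the lowest control value for 45 of the 54 tested members, where 36.4% of all tested genes were lowest in that library. HD-homo replicate 2 was the lowest of its line for 36 members (37.3% of all genes), and HD-het replicate 3 the highest of its line for 38 (42.1% of all genes). Without these 3 libraries, a setting chosen after the data were seen, 56 members were tested, with 38 higher and 2 lower in HD-het, 12 higher and 23 lower in HD-homo, and 7 higher and 41 lower in HD-homo against HD-het cells. Each library held between 22504543 and 41888701 counts. In a single library, a count of 0 allows up to 3 counts, or 0.0714 to 0.142 CPM, which covers counting error only.

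The labelled striatal identity showed in few markers. Of 13 markers of medium spiny neurons, the main striatal cell type, 3 reached 1 CPM in each line, and the dopamine receptor genes Drd1 and Drd2 had a count of 0 in all 9 libraries. Foxp1 had a mean of 33.5 CPM for the control line, 43.1 for the HD-het line and 56.9 for the HD-homo line. Ppp1r1b stood at 12, 5.18 and 10.5 CPM in that order. The third marker to reach 1 CPM was Penk for the control line (1.42) and the HD-homo line (2.92), but Pde10a for the HD-het line (1.15). Of 9 general neuronal markers, 3 reached 1 CPM in each line, with sums of 212 to 257 CPM in the control, 139 to 154 CPM in the HD-het and 148 to 157 CPM in the HD-homo libraries. Most of the difference in that sum was Stmn2, at means of 87.4, 8.58 and 6.08 CPM in the same order. Tubb3 (101, 84.2 and 102 CPM) and Map2 (46.5, 55.3 and 44.3 CPM) differed less. Of 11 neural progenitor markers, 6 reached 1 CPM in control and HD-het cells and 5 in HD-homo cells, and their sum, most of it Nes, was 396 to 544 CPM in the control, 1120 to 1250 CPM in the HD-het and 27.8 to 41.5 CPM in the HD-homo libraries. Pax6 went the same way as Nes against control, at log2 0.52 for the HD-het line and -7.64 for the HD-homo line. Fabp7 also rose with Nes in the HD-het line (4.29), and Sox2 also fell with it in the HD-homo line (-4.47). Opposite to Nes, Dlx1, Dlx2 and Sox2 were lower in HD-het cells (log2 -0.60, -2.18 and -0.59). Dlx1, Dlx2 and Fabp7 were higher in HD-homo cells (0.56, 1.10 and 1.37), and Gsx2 and Hes5 were at 0 throughout. Of 10 mesenchymal and pericyte markers, 8 reached 1 CPM in each line, with sums of 6840 to 9760 CPM in the control, 28700 to 30900 CPM in the HD-het and 5750 to 7370 CPM in the HD-homo libraries. Most of that sum was Col1a1, Acta2 and Tagln. In the HD-homo line Acta2 and Tagln were below control (log2 -3.94 and -3.49), and Col1a2, Pdgfra and Dcn were above it (5.41, 5.33 and 2.47). Col1a1, Col3a1 and Pdgfrb did not pass there (0.45, -0.29 and 0.29). A list of 6 oligodendrocyte markers summed to 35.2 to 66.2, 228 to 340 and 36.3 to 68.9 CPM in the same order, with 1 gene, Cspg4, at 1 CPM or more and Mog and Olig2 at 0. Astrocyte markers summed to 2.48 to 4.09, 2.2 to 3.12 and 12 to 14.2 CPM in the same order. Slc1a3 was below control in HD-het (log2 -0.84) and above it in HD-homo cells (2.81). Endothelial markers summed to 0.602 to 0.952, 1.9 to 2.36 and 0.459 to 1.06 CPM, with Kdr above control in HD-het cells (log2 1.99). Microglial markers summed to at most 1.46 CPM in any library. The part of these marker differences in the results on guidance genes was not tested.

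**Figure D1:**
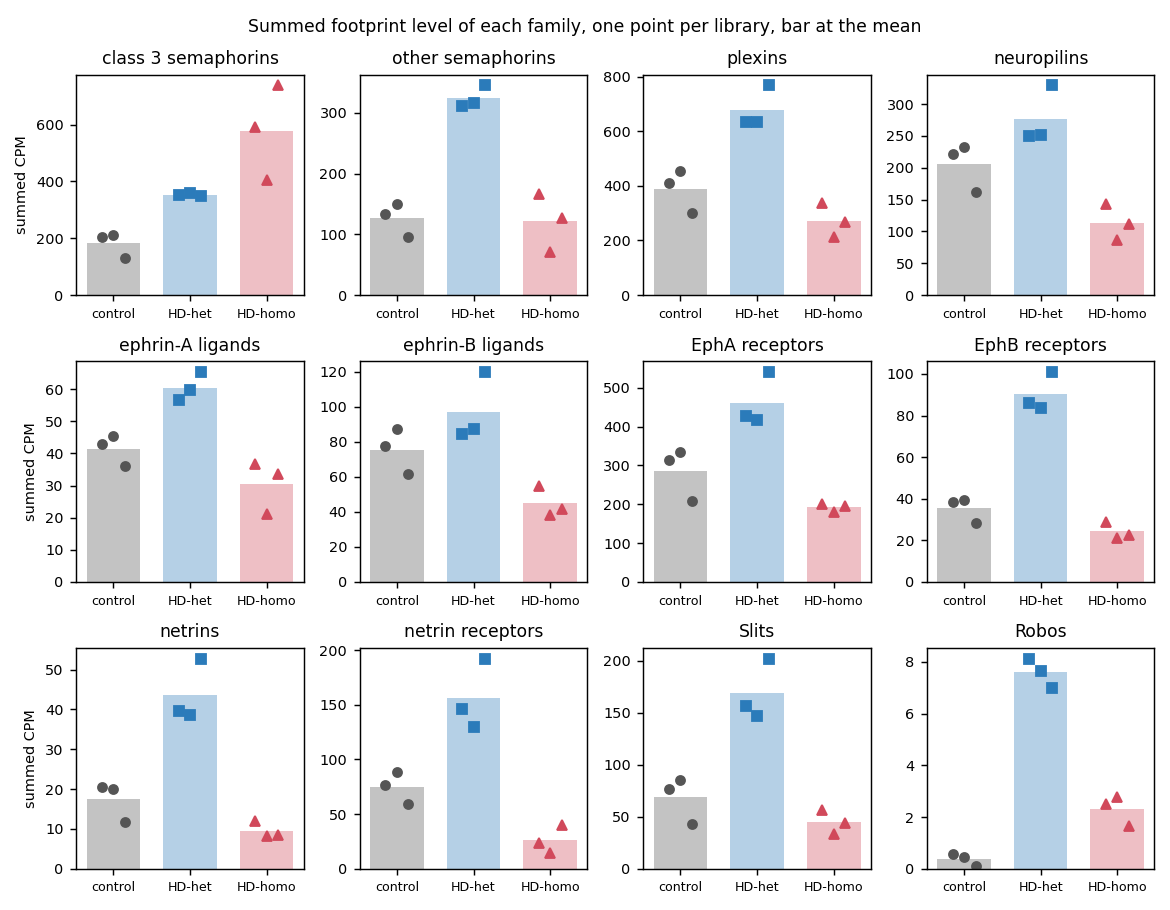
Summed footprint level in CPM of the members of each of 12 families, with 1 point for each of the 3 libraries of control, HD-het and HD-homo cells and a bar at the mean on a linear axis from 0. In 11 families the bar is highest in HD-het cells, and the class 3 semaphorins are highest in HD-homo cells.

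**Figure D2:**
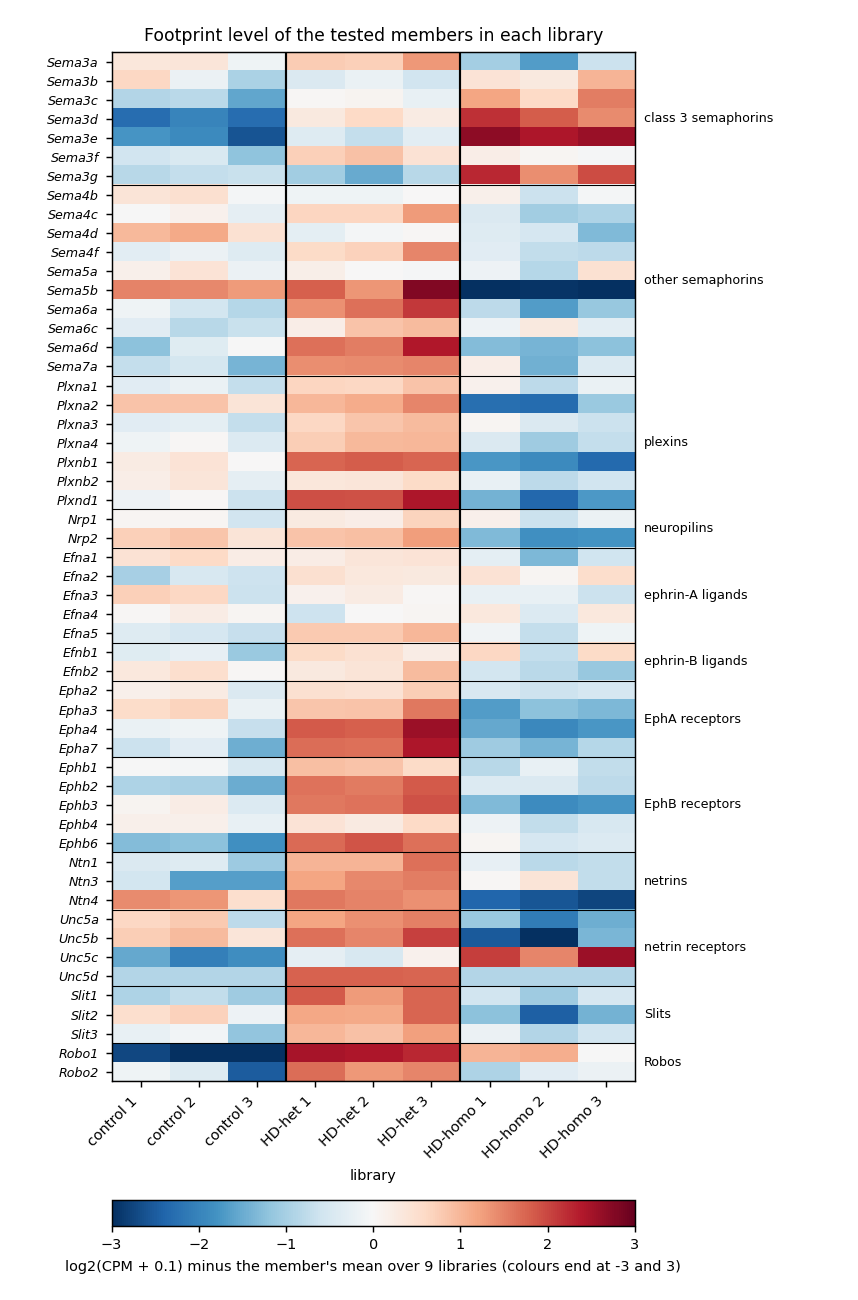
Level of the 54 tested members (rows, by family) in each of 9 libraries (columns), as log2(CPM + 0.1) minus the member's mean over the 9 libraries, with colours that end at -3 and 3. Most rows are highest in the HD-het columns, and Sema3c, Sema3d, Sema3e, Sema3g and Unc5c are highest in the HD-homo columns.

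The class 3 semaphorins, the secreted ligands of neuropilins, made up 5 of the 11 members that were higher in HD-homo cells. All 7 were tested. In HD-het cells 5 were higher than in control, where 31.0% of all genes were. In HD-homo cells 5 were higher, where 23.3% of all genes were, and Sema3a was lower (22.3%). Sema3d could pass the count filter only through the mutant lines and Sema3g only through the HD-homo line, so these counts describe the tested members only. With at least 10 counts in every library, Sema3c, Sema3e and Sema3f were still called higher in HD-homo cells. Sema3c, a cue that can attract or repel axons and that also acts in heart and vessel development, held 121, 128 and 75.4 CPM in the control, 230, 237 and 192 CPM in the HD-het and 505, 338 and 651 CPM in the HD-homo libraries. The 3 lines did not overlap, and the HD-homo libraries spread most. Its log2 difference was 1.02 ± 0.23 in HD-het (SE, n = 3, adjusted p = 0.00285) and 2.20 ± 0.24 in HD-homo cells (adjusted p = 2.12e-05), and HD-homo exceeded HD-het cells by 1.18 ± 0.23 (adjusted p = 0.000885). Sema3e, the ligand that binds Plxnd1 without needing a neuropilin, stood at 1.6, 1.45 and 0.865 CPM in the control, 4.37, 3.44 and 4.54 CPM in the HD-het and 37.4, 31 and 35 CPM in the HD-homo libraries. Every HD-homo library thus lay above every HD-het library, and these above the controls. The change was 3.15-fold in HD-het (log2 1.62 ± 0.20, adjusted p = 4.49e-05) and 26.4-fold in HD-homo cells (log2 4.70 ± 0.19, adjusted p = 7.41e-09).

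Sema3a, the classical growth cone collapsing ligand of Nrp1, held 69.2, 70.2 and 49.2 CPM in the control, 91.9, 89 and 133 CPM in the HD-het and 26.9, 16.8 and 34.4 CPM in the HD-homo libraries. It was thus high for HD-het and low for HD-homo cells, with no overlap between lines. The log2 difference was 0.73 ± 0.24 in HD-het (adjusted p = 0.0196), -1.28 ± 0.24 in HD-homo (adjusted p = 0.00132) and -2.01 ± 0.25 between the mutant lines (adjusted p = 2.65e-05). The call in HD-het cells was lost without HD-het replicate 3 (0.50) and without control replicate 3 (0.58). Sema3a, Sema3c, Sema3d and Sema3e lie near each other on mouse chromosome 5 (build GRCm38.p6). Sema3d spans 12383161 to 12588953, Sema3a 13124822 to 13603485, Sema3e 14025276 to 14256689 and Sema3c 17574816 to 17730268, so the gene that was lower in HD-homo cells sits between genes that were higher.

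The other members of the class differed among themselves. Sema3d had 1 count over the 3 control libraries, 46 over the HD-het and 145 over the HD-homo libraries. The ratio to control, with an exact 95% interval for counting error, was 52.0 (8.88 to 2100) for HD-het and 162 (28.7 to 6460) for HD-homo cells. Sema3g was at 0.191, 0.214 and 0.226 CPM in the control, 0.152, 0.0825 and 0.189 CPM in the HD-het and 2.39, 1.26 and 1.91 CPM in the HD-homo libraries, and only the HD-homo value passed the test (log2 3.13 ± 0.33, adjusted p = 1.64e-05). Sema3f, a ligand that prefers Nrp2, was higher in both mutant lines (log2 1.40 ± 0.18 and 0.78 ± 0.18, adjusted p = 5.88e-05 and 0.00461). Sema3b did not pass against control in either line (log2 -0.36 ± 0.40 and 0.68 ± 0.36).

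The bases before the start sites of genes that were high or low together are shown for Sema3c and Sema3e, which rose most in footprint level among abundant ligands in HD-homo cells, and for a pair of netrin receptors that went opposite ways there, Unc5c (higher) and Unc5b (lower). They are the 250 bases upstream of the RefSeq start, 5′ to 3′ on the gene's strand, at chr5:17574566-17574815, plus strand, at chr5:14025026-14025275, plus strand, at chr3:141465314-141465563, plus strand and at chr10:60831582-60831831, minus strand (GRCm38.p6). Capitals mark matches, on either strand, to the letters of the GC box (GGGCGG), the CCAAT box, the TATA box core (TATAAA) and the E-box (CACGTG), and the matches shown do not overlap each other.
Sema3c: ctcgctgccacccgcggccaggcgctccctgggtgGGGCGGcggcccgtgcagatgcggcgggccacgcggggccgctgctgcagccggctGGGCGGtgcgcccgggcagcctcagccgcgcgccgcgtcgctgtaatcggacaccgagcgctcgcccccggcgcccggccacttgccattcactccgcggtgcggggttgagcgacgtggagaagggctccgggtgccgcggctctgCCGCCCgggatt
Sema3e: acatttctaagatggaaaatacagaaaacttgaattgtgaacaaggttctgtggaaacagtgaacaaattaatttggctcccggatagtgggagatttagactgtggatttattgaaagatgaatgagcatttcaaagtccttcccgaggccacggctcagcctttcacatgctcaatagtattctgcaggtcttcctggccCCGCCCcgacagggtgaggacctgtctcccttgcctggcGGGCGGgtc
Unc5c: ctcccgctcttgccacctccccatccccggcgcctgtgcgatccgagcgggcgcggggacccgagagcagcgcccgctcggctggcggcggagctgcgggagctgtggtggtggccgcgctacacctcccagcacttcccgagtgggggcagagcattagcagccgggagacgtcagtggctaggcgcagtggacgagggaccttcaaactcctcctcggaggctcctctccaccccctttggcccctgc
Unc5b: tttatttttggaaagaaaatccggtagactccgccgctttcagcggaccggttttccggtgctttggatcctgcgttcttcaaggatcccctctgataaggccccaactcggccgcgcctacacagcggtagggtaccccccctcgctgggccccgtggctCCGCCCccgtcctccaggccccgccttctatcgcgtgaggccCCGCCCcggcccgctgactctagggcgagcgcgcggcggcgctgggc
The only motif of the 4 found in these windows was GGGCGG, with 3 matches for Sema3c, 2 for Sema3e, 2 for Unc5b and 0 for Unc5c. G and C made up 78.4% of the Sema3c window and 48% of that of Sema3e, 71.2% for Unc5c and 66.8% for Unc5b. The table held 77 promoters of 61 members, of which 70.1% had GGGCGG in the 250 bases, beside 32.7% of all 32851 promoters. CCAAT was in 27.3% beside 33.8%, TATAAA in 2.60% beside 12.4%, and CACGTG in 5.19% beside 6.02%. GGGCGG thus stood in the windows of genes that rose and of a gene that fell.

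The membrane-bound semaphorins of classes 4 to 7 had 10 tested members. The HD-het line had 6 of them higher and 1, Sema4d, lower, while in HD-homo cells 3 were lower and 7 did not pass. Of all genes, 31.0% were higher and 29.1% lower in HD-het cells, and 22.3% were lower in HD-homo cells. Sema6a, Sema6c and Sema6d could pass the count filter only with the HD-het libraries, in which they were high. Sema7a, a lipid-anchored semaphorin that signals through integrins and Plxnc1, was the most abundant per coding length. It held 55.2, 62.9 and 34.7 CPM in the control, 238, 245 and 253 CPM in the HD-het and 105, 33.2 and 68.9 CPM in the HD-homo libraries. All HD-het libraries lay above the rest, and the HD-homo libraries spread widely and overlapped control. The log2 difference was 2.26 ± 0.34 in HD-het (adjusted p = 0.000159) and 0.44 ± 0.33 in HD-homo cells (adjusted p = 0.294). The latter became 0.78 and passed without HD-homo replicate 2, passed at 0.56 without control 3, HD-het 3 and HD-homo 2 together, and fell to about 0 without HD-homo replicate 1.

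Sema5b was nearly lost from HD-homo cells. This transmembrane semaphorin with thrombospondin repeats stood at 3.7, 3.54 and 3.16 CPM in the control, 4.59, 3.27 and 9.17 CPM in the HD-het and 0.0278, 0.0765 and 0 CPM in the HD-homo libraries, from 330, 434 and 3 counts in all. With 3 counts in the HD-homo libraries together, control exceeded HD-homo cells by a ratio of 98.2 (exact 95% counting interval 33.3 to 479) and HD-het exceeded them by 146 (49.6 to 711), with adjusted p = 1.22e-05 and 2.09e-06. The HD-het value (log2 0.68 ± 0.32 against control) did not pass, and passed without HD-het replicate 2 (0.96). The fitted log2 change in HD-homo cells moved from -6.45 to -7.35 without HD-homo replicate 2, the library with most of the 3 counts. Sema6d, a ligand and receptor of A-type plexins, was at 0.267, 0.571 and 0.752 CPM in the control, 2.62, 2.39 and 4.45 CPM in the HD-het and 0.25, 0.229 and 0.266 CPM in the HD-homo libraries. HD-het libraries were high for it (log2 2.53 ± 0.33, adjusted p = 6.65e-05). In HD-homo cells it was -1.10 ± 0.47 with adjusted p = 0.0758, which passed without control replicate 1 (-1.39) and without HD-het replicate 3 (-1.11). Sema4d, a ligand of Plxnb1, was lower in both mutant lines (log2 -1.03 ± 0.24 and -1.61 ± 0.25, adjusted p = 0.00356 and 0.000345), and Sema4c was higher for HD-het and lower for HD-homo cells (0.91 ± 0.21 and -0.74 ± 0.22). Sema4b and Sema5a passed in no comparison, with changes between -0.44 and -0.07 and between -0.25 and -0.09 on the log2 scale.

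The semaphorin receptors included 4 of 7 tested plexins and 1 of 2 neuropilins that were called below control in the HD-homo line (22.3% of all genes). All 7 tested plexins and both neuropilins were lower there than in HD-het cells (32.8% of all genes). Plxnd1, the receptor of Sema3e, held 26.5, 30.3 and 18.7 CPM in the control, 113, 111 and 158 CPM in the HD-het and 10.9, 5.7 and 8.83 CPM in the HD-homo libraries. The 3 lines were far apart, with HD-het on top and HD-homo at the bottom. Its log2 difference was 2.33 ± 0.23 in HD-het (adjusted p = 9.3e-06), -1.56 ± 0.24 in HD-homo (adjusted p = 0.000307) and -3.89 ± 0.26 between the mutant lines (adjusted p = 2.09e-07). Plxnb1, the receptor of Sema4d, was at 6.76, 7.61 and 5.79 CPM in the control, 19.4, 20.2 and 19.4 CPM in the HD-het and 1.64, 1.45 and 1.06 CPM in the HD-homo libraries. The order of the lines was the same, with log2 1.54 ± 0.14 for HD-het and -2.25 ± 0.17 for HD-homo cells (adjusted p = 4.07e-06 and 8.46e-07). The ligand Sema3e and its receptor Plxnd1 thus lay at opposite ends in HD-homo cells, and Sema4d and Plxnb1 were both low there.

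Plxna2, an A-type plexin that signals with neuropilins and for Sema6 ligands, stood at 23.6, 23.7 and 17 CPM in the control, 25.8, 28.1 and 36.1 CPM in the HD-het and 2.64, 2.52 and 5.9 CPM in the HD-homo libraries. HD-homo libraries were lowest without overlap (log2 -2.58 ± 0.28, adjusted p = 2.16e-05), and the HD-het value of 0.48 ± 0.25 did not pass (adjusted p = 0.113), though it did without HD-homo replicate 3 (0.48) and in a fit of only the 6 libraries compared. Plxnb2, the most abundant plexin, held 259, 292 and 188 CPM in the control, 289, 291 and 340 CPM in the HD-het and 195, 132 and 152 CPM in the HD-homo libraries. It was lower in the HD-homo than in the control line (log2 -0.63 ± 0.17, adjusted p = 0.0113) with overlapping libraries, and the call was lost without control replicate 2 (-0.49). Plxna1, Plxna3 and Plxna4 were higher in HD-het cells (log2 1.12, 1.25 and 1.10) and did not pass in HD-homo cells (0.17, 0.15 and -0.61). Plxna1 overlaps Gm40415, which has counts, and Plxna4 overlaps the antisense gene Plxna4os1, which had a count of 0 in every library.

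The neuropilins split. Nrp2, the co-receptor preferred by Sema3f, held 115, 125 and 92.3 CPM in the control, 126, 132 and 167 CPM in the HD-het and 27.8, 19.5 and 20.1 CPM in the HD-homo libraries. Control and HD-het libraries were close to each other, and the HD-homo libraries lay far under both. The log2 difference was -2.30 ± 0.17 in HD-homo cells (adjusted p = 8.68e-07) and 0.35 ± 0.16 in HD-het cells (adjusted p = 0.0761), where it passed without HD-homo replicate 1 and with only the 6 libraries compared (0.35 in either case). Nrp1, the co-receptor of Sema3a that also binds VEGF, stood at 107, 108 and 69.5 CPM in the control, 124, 119 and 163 CPM in the HD-het and 115, 66.2 and 91.2 CPM in the HD-homo libraries. Control and HD-homo libraries overlapped, with a log2 fold change of -0.06 ± 0.21 (adjusted p = 0.848). HD-homo cells were lower than HD-het cells, with a log2 difference of -0.57 ± 0.21 (adjusted p = 0.0325), a call that was lost without HD-het replicate 3 (-0.42), HD-homo replicate 2 (-0.39) or HD-homo replicate 3 (-0.57), and without control 3, HD-het 3 and HD-homo 2 together (-0.23). The HD-het value against control, 0.52 ± 0.21 with adjusted p = 0.0554, passed with DESeq2 (0.53), with at least 10 counts in every library (0.55), with only the 6 libraries compared (0.52) and without HD-homo replicate 1 or 2 (0.51 in either case).

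**Figure D3:**
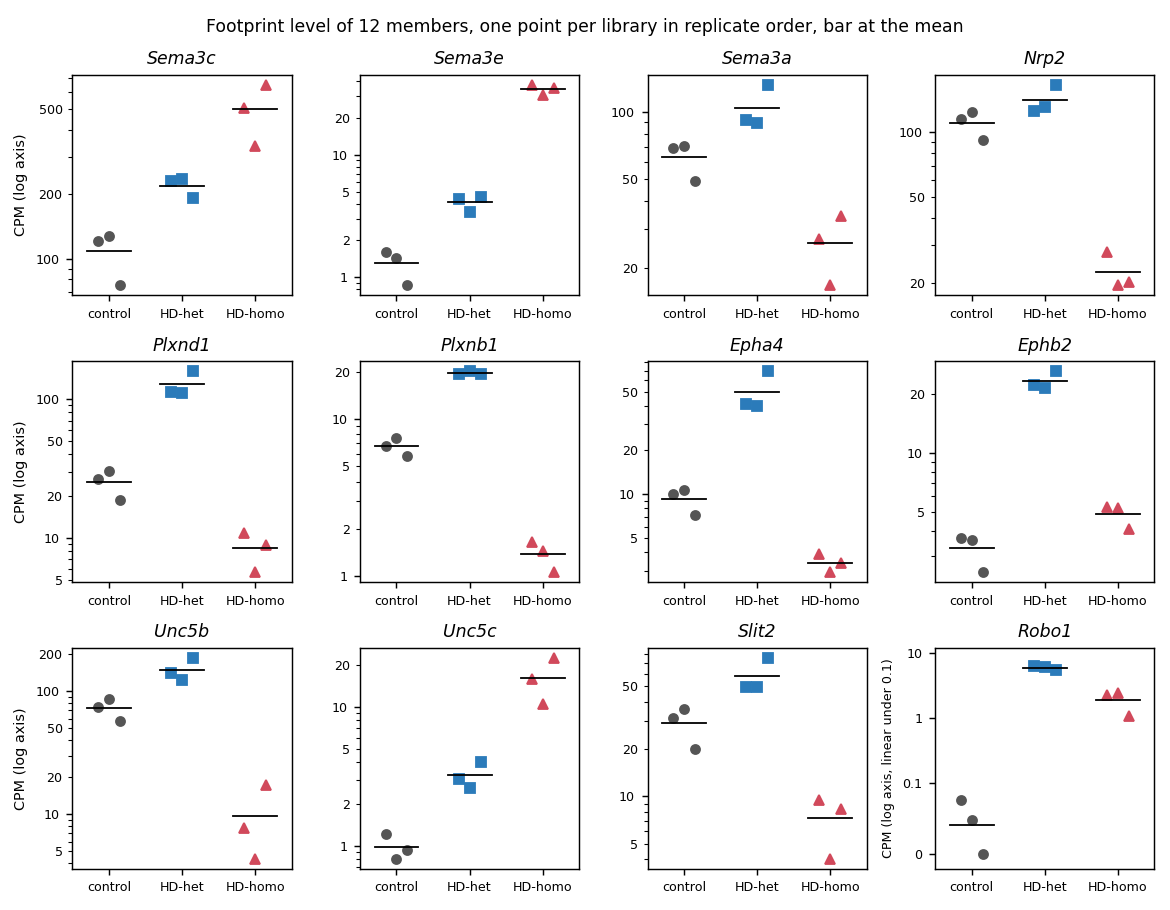
Footprint level in CPM of 12 members on log axes (linear under 0.1 CPM for Robo1), with 1 point per library in replicate order and a bar at the mean of the 3 libraries. Sema3c, Sema3e and Unc5c climb from control over HD-het to HD-homo cells, while Nrp2, Plxnd1, Plxnb1, Epha4, Unc5b, Sema3a and Slit2 are lowest in HD-homo cells.

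Of 9 tested Eph receptors, 7 were higher in HD-het cells than in control, where 31.0% of all genes were. All 9 were lower in the HD-homo than in the HD-het line, where 32.8% of all genes were. Ephb6 could pass the count filter only through the mutant lines, in which it was high. Epha4, a receptor that binds ephrins of both classes, held 10.1, 10.6 and 7.15 CPM in the control, 41.5, 40.2 and 69.1 CPM in the HD-het and 3.89, 2.94 and 3.37 CPM in the HD-homo libraries. The HD-het libraries lay well above control and the HD-homo libraries under it (log2 2.42 ± 0.22 and -1.45 ± 0.24, adjusted p = 4.98e-06 and 0.000575). Ephb3 showed the same order at 11.6, 12.8 and 8.2 CPM in the control, 33.1, 34 and 41.3 CPM in the HD-het and 4.31, 2.91 and 3.15 CPM in the HD-homo libraries. Its log2 fold changes were 1.72 ± 0.18 and -1.64 ± 0.20 (adjusted p = 1.11e-05 and 4.3e-05). Between the mutant lines, Epha4 differed by -3.87 ± 0.25 and Ephb3 by -3.36 ± 0.20 (adjusted p = 1.66e-07 and 8.9e-08).

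Ephb2, Ephb6 and Epha7 were above control in the HD-het line, and lower in the HD-homo than in the HD-het line. Ephb2, whose role in axon guidance across the midline is known from mouse mutants, stood at 3.7, 3.62 and 2.48 CPM in the control, 22.2, 21.3 and 25.9 CPM in the HD-het and 5.31, 5.24 and 4.12 CPM in the HD-homo libraries. HD-het libraries were far above both others (log2 2.81 ± 0.17, adjusted p = 2.27e-07). The rise in HD-homo cells was smaller, 0.58 ± 0.17 with adjusted p = 0.0169, and was no longer called without HD-homo replicate 1 (0.51), without control replicate 3 (0.43) or without the 3 libraries named above together (0.39). Ephb6, an Eph receptor without kinase activity, was at 0.267, 0.285 and 0.15 CPM in the control, 2.81, 3.25 and 2.74 CPM in the HD-het and 0.835, 0.535 and 0.577 CPM in the HD-homo libraries. It was higher in both mutant lines (log2 3.59 ± 0.27 and 1.45 ± 0.32, adjusted p = 1.27e-06 and 0.00332). Epha7 held 1.34, 1.69 and 0.715 CPM in the control, 7.1, 7.04 and 12.1 CPM in the HD-het and 0.974, 0.765 and 1.15 CPM in the HD-homo libraries. Only its HD-het value passed against control (log2 2.76 ± 0.30, adjusted p = 1.65e-05), with -0.42 ± 0.36 in HD-homo cells.

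Epha2 was the most abundant Eph receptor, at 303, 320 and 200 CPM in the control, 376, 367 and 456 CPM in the HD-het and 194, 176 and 192 CPM in the HD-homo libraries. This receptor of ephrin-A1 differed little in fold from control, with log2 0.54 ± 0.16 for HD-het and -0.55 ± 0.16 for HD-homo cells (adjusted p = 0.0105 and 0.0134). Both calls depended on single libraries, since the first was lost without HD-het replicate 3 (0.42) and the second without control replicate 1 (-0.49) or 2 (-0.43). Between the mutant lines the difference was -1.09 ± 0.16 (adjusted p = 8.47e-05). Ephb4, known from arteriovenous identity with its ligand ephrin-B2, held 22.2, 22.2 and 17.2 CPM in the control, 26.5, 23.9 and 30.2 CPM in the HD-het and 18.1, 12 and 14.3 CPM in the HD-homo libraries. It was lower in the HD-homo than in the control line, at a log2 difference of -0.47 ± 0.16 (adjusted p = 0.033) with overlapping libraries, and the call was lost without HD-homo replicate 2 (-0.34) or 3 (-0.44) and without control replicate 1 (-0.43) or 2 (-0.41). Its HD-het value was 0.38 ± 0.16 (adjusted p = 0.0555) and passed without HD-homo replicate 1 or 2 (0.38 in either case), with DESeq2 (0.39), with at least 10 counts in every library (0.41) and with only the 6 libraries compared (0.38). Ephb1 was higher in HD-het cells (1.06 ± 0.25, adjusted p = 0.0037), and Epha3 was lower in HD-homo cells (-2.48 ± 0.46, adjusted p = 0.00114).

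The ephrins are the ligands of the Eph receptors. Of 7 tested, 3 (Efna2, Efna5 and Efnb1) were higher in HD-het cells, where 31.0% of all genes were. In HD-homo cells Efna2 was higher (23.3% of all genes) and Efna1 and Efnb2 lower (22.3% of all genes). Efna2 could pass the count filter only through the mutant lines, in which it was high. Efna1, the preferred ligand of Epha2, stood at 24.3, 27.4 and 21.2 CPM in the control, 21.2, 23.3 and 23.9 CPM in the HD-het and 14.7, 7.00 and 12 CPM in the HD-homo libraries. Control and HD-het libraries overlapped (log2 -0.10 ± 0.20) and HD-homo libraries were lower (log2 -1.11 ± 0.21, adjusted p = 0.00124). Efnb2, a transmembrane ligand of Ephb4, held 68.9, 77.8 and 56.5 CPM in the control, 67.6, 71.7 and 107 CPM in the HD-het and 37.5, 31.4 and 25.2 CPM in the HD-homo libraries. It was lower in HD-homo cells (log2 -1.11 ± 0.19, adjusted p = 0.000722), while the HD-het value of 0.27 ± 0.19 did not pass (adjusted p = 0.235). Efna5 was 2.62-fold higher in HD-het cells (log2 1.38 ± 0.16, adjusted p = 2.46e-05) and did not pass in HD-homo cells (0.24 ± 0.16). Efna3 and Efna4 passed in no comparison, with log2 changes of -0.79 to -0.24 and -0.28 to 0.27.

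Of 3 tested netrins, Ntn1 and Ntn3 were higher in HD-het cells (31.0% of all genes), and Ntn4 was lower in HD-homo cells (22.3% of all genes). Ntn3 could pass the count filter only with the HD-het libraries, in which it was high. Ntn1, the founding midline attractant, stood at 9.7, 10.0 and 6.13 CPM in the control, 26.7, 26.4 and 41.2 CPM in the HD-het and 11, 7.42 and 7.81 CPM in the HD-homo libraries. HD-het libraries lay above both other lines (log2 1.85 ± 0.23, adjusted p = 4.52e-05), and control and HD-homo libraries overlapped (0.02 ± 0.24). Ntn4, a netrin that binds laminin in basement membranes, held 10.5, 9.8 and 5.53 CPM in the control, 11.8, 11.1 and 10.1 CPM in the HD-het and 0.668, 0.574 and 0.488 CPM in the HD-homo libraries. The HD-homo libraries were lowest by far, with log2 -3.87 ± 0.27 against control and -4.22 ± 0.27 against HD-het cells (adjusted p = 6.28e-07 and 1.9e-07), and HD-het cells did not differ past the threshold from control (0.35 ± 0.20). Ntn3 had 3 counts in the control, 60 in the HD-het and 18 in the HD-homo libraries, which gave ratios to control of 22.6 (7.38 to 113) and 6.72 (1.96 to 35.6) with exact 95% counting intervals. Ntn3 overlaps Tbc1d24, which has counts of its own, and whether counting used strand is not given in the sources used here.

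The Unc5 receptors, which mediate repulsion by netrins, did not move as a group in HD-homo cells. All 4 were higher in HD-het cells, where 31.0% of all genes were, but Unc5a and Unc5d could pass the count filter only with the libraries of that line. Unc5b, also known from vessel guidance, held 74.2, 86.6 and 57.6 CPM in the control, 140, 124 and 185 CPM in the HD-het and 7.68, 4.36 and 17.3 CPM in the HD-homo libraries. Its HD-homo libraries were the lowest and spread about their mean of 9.76 CPM with an SD of 6.7. The log2 difference was -2.92 ± 0.38 in HD-homo cells (adjusted p = 7.7e-05) and reached -3.58 without HD-homo replicate 3, and against HD-het cells it was -3.96 ± 0.39 (-4.61 without that library). The HD-het rise of 1.04 ± 0.34 (adjusted p = 0.0203) was lost without HD-het replicate 3 (0.84), control replicate 1 (1.04) or control replicate 3 (0.89), and with DESeq2 (1.05, adjusted p = 0.0673). Unc5c, whose loss disturbs cerebellar migration in mice, went up in both lines at 1.22, 0.809 and 0.941 CPM in the control, 3.04, 2.61 and 4.02 CPM in the HD-het and 15.8, 10.4 and 22.3 CPM in the HD-homo libraries. The libraries of the 3 lines did not overlap, with log2 1.70 ± 0.33 for HD-het and 4.05 ± 0.31 for HD-homo cells (adjusted p = 0.000941 and 1.03e-06). Unc5a was higher for HD-het and lower for HD-homo cells (1.04 ± 0.36 and -2.33 ± 0.51, adjusted p = 0.0255 and 0.00319), but its gene overlaps Hk3, and the same limit on strand applies. Unc5d had 44 counts in HD-het libraries and 0 in all control and HD-homo libraries, at least 16.6-fold above control and at least 14.8-fold above HD-homo cells when 3 counts over the group are taken as the floor.

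The 3 Slits, secreted repellents, were higher in HD-het cells than in control, where 31.0% of all genes were. They were lower in the HD-homo than in the HD-het line, where 32.8% of all genes were. Slit1 could pass the count filter only with the HD-het libraries, in which it was high. Slit3 was the most abundant per coding length, at 45.2, 49.2 and 23.1 CPM in the control, 104, 95.9 and 124 CPM in the HD-het and 46.6, 28.7 and 35.3 CPM in the HD-homo libraries. HD-het libraries lay above both other lines (log2 1.46 ± 0.25, adjusted p = 0.000447), which overlapped (-0.09 ± 0.25). Slit2 stood at 31.5, 35.8 and 20.1 CPM in the control, 49.6, 49.3 and 75.4 CPM in the HD-het and 9.51, 4.01 and 8.34 CPM in the HD-homo libraries. The HD-homo libraries were lowest (log2 -1.99 ± 0.31, adjusted p = 0.000277), and the HD-het rise of 0.99 ± 0.28 (adjusted p = 0.0101) was lost without HD-het replicate 3 (0.74). Slit1, the form most restricted to the nervous system, was at 0.306, 0.357 and 0.263 CPM in the control, 2.62, 1.76 and 2.46 CPM in the HD-het and 0.417, 0.268 and 0.444 CPM in the HD-homo libraries. Its HD-het libraries were 7.39-fold above control (log2 2.83 ± 0.27, adjusted p = 6.95e-06) and HD-homo libraries did not pass (0.26 ± 0.34).

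Their receptor Robo1 had the largest fitted rise in HD-het cells among members with more than 3 counts in the lower line. It held 0.0764, 0.0476 and 0 CPM in the control, 6.38, 6.24 and 5.49 CPM in the HD-het and 2.28, 2.41 and 1.06 CPM in the HD-homo libraries, from 4 counts in the control, 511 in the HD-het and 169 in the HD-homo libraries. The mutant lines lay far above control and apart from each other, with log2 7.03 ± 0.46 in HD-het, 5.40 ± 0.52 in HD-homo and -1.63 ± 0.26 between them (adjusted p = 4.91e-07, 7.18e-06 and 0.000186). With so few control counts the size of the rise is loosely set, and the HD-homo value became 4.81 without control 3, HD-het 3 and HD-homo 2. Robo2 was higher in HD-het cells (log2 2.49 ± 0.50, adjusted p = 0.00127) and did not pass in HD-homo cells (0.20 ± 0.64). It too could pass the count filter only with the HD-het libraries, in which it was high.

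**Figure D4:**
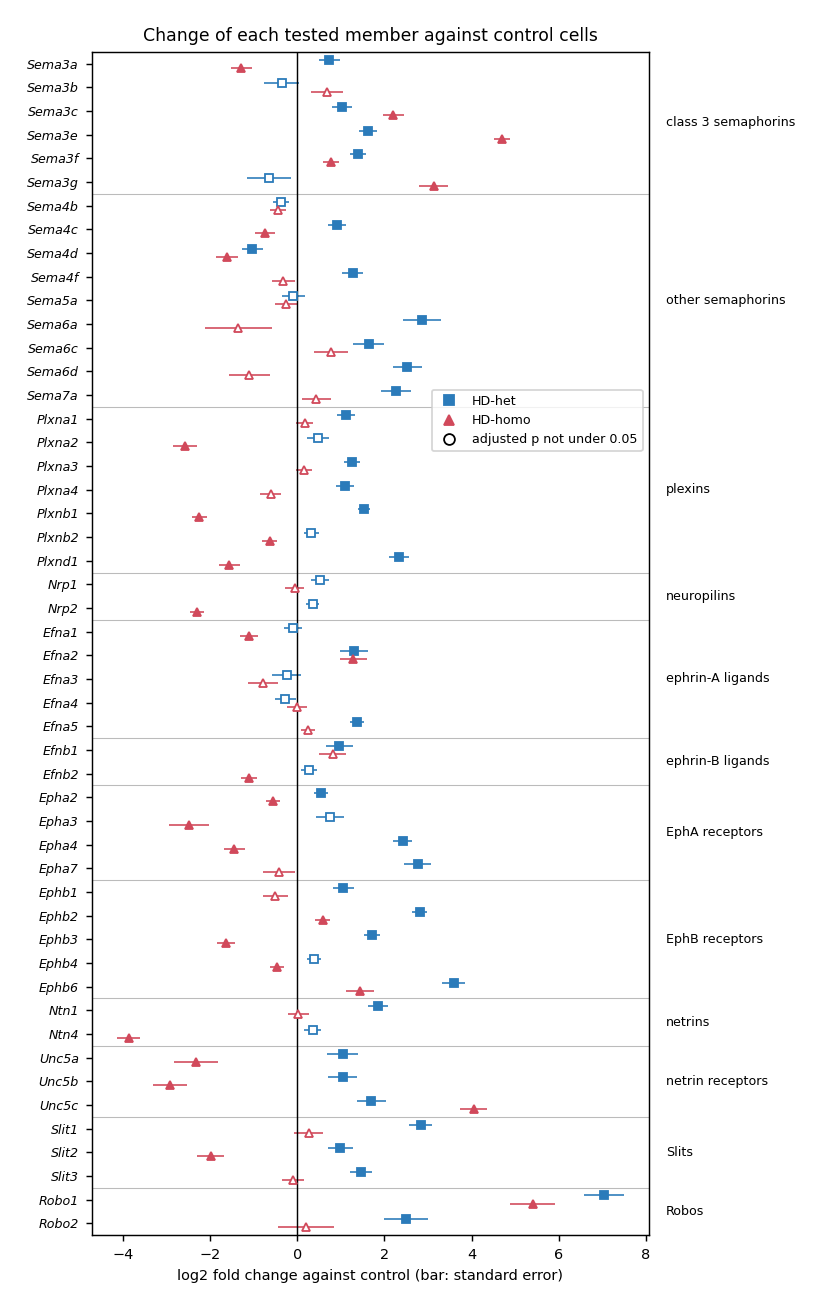
Log2 fold change against control (x axis, bar for the standard error) of 50 tested members in HD-het (squares) and HD-homo cells (triangles), by family, with open symbols where the adjusted p was not under 0.05. Ntn3, Sema3d, Sema5b and Unc5d are left out because a line held at most 3 of their counts. The HD-het symbols lie mostly right of 0, while those of HD-homo cells scatter to both sides, from Ntn4 at -3.87 to Robo1 at 5.40.

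The 18 members that were not tested held few counts. Robo4 and Plxna4os1 had 0 in every library. Epha10 had 5, 41 and 1 counts in control, HD-het and HD-homo libraries together, Epha5 3, 23 and 1, Epha6 4, 23 and 1, and Ntng2 0, 24 and 1. These 4 receptor and netrin-G genes had most of their few counts in HD-het cells. Sema6b had 3, 5 and 22, most of them in HD-homo cells. Dcc, the main attractive netrin receptor, had 9, 9 and 4. Efnb3, Epha1, Epha8, Ntn5, Ntng1, Plxnb3, Plxnc1, Robo3, Sema4a and Sema4g had at most 26 counts in any line.

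Levels of different genes were compared per kilobase of coding sequence, as CPM per kilobase (mean ± SD, n = 3). Epha2 was highest in control and HD-het cells and Sema3c in HD-homo cells. In the order control, HD-het and HD-homo, Epha2 had a level of 93.5 ± 22.1, 136 ± 16.7 and 63.8 ± 3.47, Sema3c of 48 ± 12.7, 97.4 ± 10.6 and 221 ± 69.3 and Sema7a of 25.5 ± 7.31, 123 ± 3.81 and 34.7 ± 18.1. Efnb2 followed at 67 ± 10.6, 81.1 ± 21.2 and 31 ± 6.07, Plxnb2 at 44.6 ± 9.7, 55.5 ± 5.23 and 28.9 ± 5.84 and Nrp1 at 34.2 ± 7.88, 49 ± 8.68 and 32.8 ± 8.87. In HD-het cells Epha2 and Sema7a differed by less than the SD of Epha2. In HD-homo cells Sema3c stood above Epha2 by more than the SDs of both, and Unc5b had a level of 3.44 ± 2.36, compared with 52.9 ± 11.1 in HD-het cells.

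**Figure D5:**
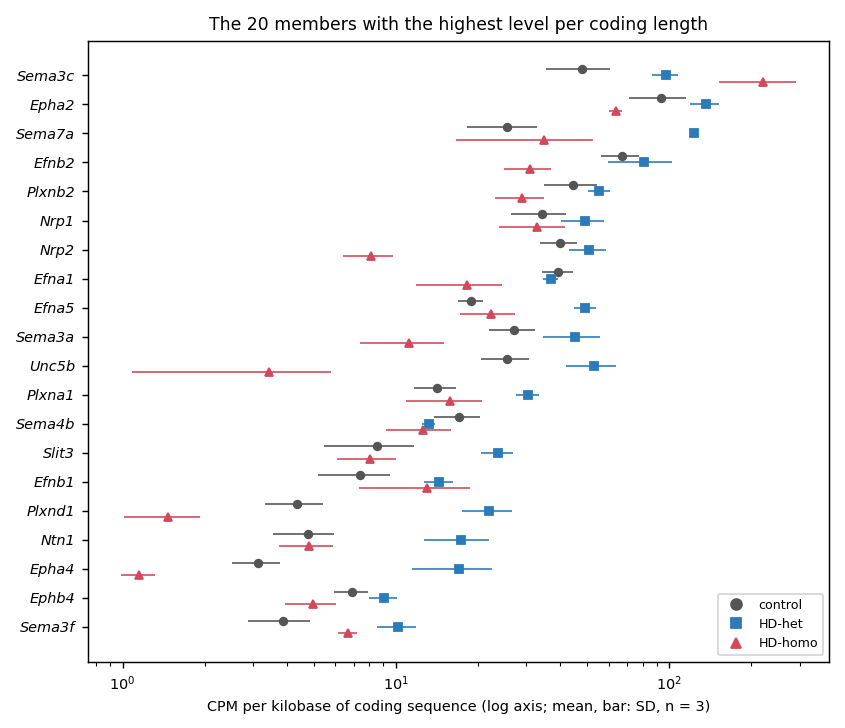
Footprint level per kilobase of coding sequence (log axis, mean with SD over 3 libraries) of the 20 members with the highest mean over the 3 lines. Sema3c leads in HD-homo cells at 221 CPM per kilobase, and Nrp2, Unc5b, Plxnd1 and Epha4 have HD-homo levels far to the left of the other lines.

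The genes that act downstream of these cues were read from a list of 76, of which 68 were tested. Set against control, the HD-het line had 29 of them higher and 16 lower (31.0% and 29.1% of all genes), with a median log2 fold change of 0.15. The HD-homo line had 14 higher and 33 lower (23.3% and 22.3% of all genes), with a median of -0.30. Between the mutant lines 16 were higher and 35 lower in HD-homo cells (34.6% and 32.8%), with a median of -0.38. Of 15 tested genes of semaphorin and plexin signalling, 10 were higher and 2 lower in HD-het, and 3 higher and 8 lower in HD-homo cells. Of 11 in Eph and ephrin signalling, 3 were higher and 4 lower in HD-het, and 1 higher and 7 lower in HD-homo cells. Of 17 in netrin and Slit signalling, 7 were higher and 4 lower in HD-het, and 3 higher and 7 lower in HD-homo cells. The 20 shared cytoskeletal effectors had 6 higher and 6 lower in HD-het, and 4 higher and 10 lower in HD-homo cells. Of 5 other guidance cues, 3 were higher in each mutant line and 1 was lower in HD-homo cells.

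Among those of at least 10 CPM on average in the higher line, Dpysl3, a collapsin response mediator protein that links semaphorin signals to microtubules, went opposite ways in the mutant lines. Its mean went from 199 ± 3.3 to 508 ± 27.5 CPM (log2 1.35 ± 0.12, adjusted p = 4.42e-06) in HD-het and to 34.3 ± 6.98 CPM in HD-homo cells (log2 -2.54 ± 0.13, adjusted p = 3.97e-08). In HD-het cells the other large rises were Flrt2, a repellent ligand of Unc5 receptors, from 12 ± 0.592 to 49.5 ± 16.9 CPM (log2 2.03 ± 0.23, adjusted p = 2.01e-05), and the proteoglycan Gpc1, a Slit co-receptor, from 122 ± 19.9 to 336 ± 41.9 CPM (log2 1.46 ± 0.21, adjusted p = 0.000106). The largest falls above that level were L1cam, an adhesion molecule that joins Nrp1 in Sema3a receptors, from 11.1 ± 5.11 to 0.693 ± 0.0677 CPM (log2 -3.98 ± 0.46, adjusted p = 2.63e-05), then the actin-binding Ablim1 from 49.3 ± 0.711 to 14.6 ± 3.84 CPM (log2 -1.76 ± 0.15, adjusted p = 3.48e-06) and Ngef, an exchange factor coupled to Eph receptors, from 25.3 ± 1.32 to 9.04 ± 0.507 CPM (log2 -1.48 ± 0.11, adjusted p = 1.47e-06).

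In HD-homo cells Mical1, an oxidase that severs actin downstream of plexins, went from 34.3 ± 3.39 to 10.8 ± 2.17 CPM (log2 -1.66 ± 0.14, adjusted p = 2.64e-06). Sipa1l1, a GTPase-activating protein that acts with Epha4, went from 37.8 ± 3.72 to 14 ± 2.29 CPM (log2 -1.44 ± 0.13, adjusted p = 4.57e-06). The largest rises there among genes of at least 10 CPM were the cofilin phosphatase Ssh3, from 3.63 ± 0.225 to 15 ± 0.37 CPM (log2 2.05 ± 0.14, adjusted p = 5.32e-07), the adaptor Grb10 from 264 ± 23.3 to 813 ± 33.9 CPM (log2 1.62 ± 0.10, adjusted p = 2.13e-07), and Flrt2 from 12 ± 0.592 to 21.2 ± 5.05 CPM (log2 0.82 ± 0.23, adjusted p = 0.0116). Flrt2 was thus called higher in both mutant lines, beside the Unc5 receptors of which Unc5b was low and Unc5c high in HD-homo cells.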

How the data were processed

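Ribosome footprints were sequenced from 9 libraries, 3 for each line. The authors deposited raw read counts per gene symbol for 36410 rows. The submitters' processing notes name cutadapt, Bowtie 1.0.1 and mm10. The counter, its annotation and how it treated strand and multiply mapped reads are not given in the sources used here. Total counts ran from 22504543 to 41888701 per library, and PCR copies were not marked, so intervals and floors cover counting error only.

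Groups came from the labels. Genes were kept by edgeR's filterByExpr (12678 of 36410), scaled by TMM and tested with the quasi-likelihood F test in 1 fit of all 9 libraries (edgeR 4.0.16, R 4.3.3). P-values were Benjamini-Hochberg adjusted over these genes with a threshold of 0.05. The SE is the log2 fold change divided by the square root of F. A line with 0 counts was given a floor of 3 counts over its libraries, and a line with 1 to 3 counts a ratio with an exact 95% interval. Levels were divided by the coding length of the RefSeq Select transcript (GRCm38.p6), and promoters are from RefSeq on the same build. Alternatives were DESeq2 1.42.0, other scalings and filters, a replicate block, fits of only the libraries compared and leaving out libraries.

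Members named in full were those at an adjusted p under 0.05 with at least 4-fold change and 2 CPM in the higher line, plus the most abundant per coding length in each family, and from the signalling list the 3 largest changes each way among genes of at least 10 CPM. Some others were named after their values were seen. The members and lists were chosen with earlier results of these data known.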

Additional observations from a re-analysis of the deposited data

Results flagged for a closer look

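Called differences against control pointed in opposite directions in the mutant lines for 10 members, higher in HD-het and lower in HD-homo cells, a pattern that 861 of all 12678 tested genes had. The reverse pattern was found for 0 members and 647 of all genes. Both lines were compared with the same control libraries, and this choice of members fixes the direction of the difference between the lines, so its values are a description. The log2 difference of HD-homo from HD-het cells was -3.96 for Unc5b, -3.89 for Plxnd1, -3.87 for Epha4, -3.80 for Plxnb1, -3.37 for Unc5a, -3.36 for Ephb3, -2.98 for Slit2, -2.01 for Sema3a, -1.66 for Sema4c and -1.09 for Epha2.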

How the results depend on the processing

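Of the values of named members under each alternative, 1409 kept their direction and their side of the threshold, 22 lost and 20 gained a call, and 11 turned in direction, none of them a called value. Sema4d was called lower in HD-het cells under every setting, and the count was 2 with total counts, with the 6 libraries compared and without control 3, HD-het 3 and HD-homo 2 (Sema4b added) and with no filter (Sema4a added). It ran from 1 to 2 when single libraries were left out, with Sema4b called without HD-homo replicate 2 or control replicate 3. At 10 or more counts in every library, 5 of 38 tested members were higher in HD-homo cells than in control (21.4% of all genes). Efna2, Ephb6, Ntn3, Robo1, Sema3d and Sema3g were no longer tested. At an adjusted p under 0.01 the signalling list had 9 higher there (16% of all genes) by the stricter threshold. Without control 3, HD-het 3 and HD-homo 2 the log2 change was -0.08 for Efnb2 in HD-het and -0.05 for Ntn1 in HD-homo cells. When single libraries were left out, the HD-homo value against control ran from -0.27 to 0.13 for Nrp1, from -0.19 to 0.15 for Ntn1, from -0.0015 to 0.78 for Sema7a and from -0.36 to 0.11 for Slit3, and the cause was not tested. DESeq2 tested 69 members. It called 42 higher and 1 lower in HD-het cells (28.3% and 25.1% of all genes). In HD-homo cells it called 13 higher and 21 lower (21.3% and 20.2% of all genes).

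The replicate numbers were not shown to pair the libraries, since deviations of libraries with the same number correlated at -0.356 to 0.175 and HD-het 1 correlated more with HD-homo 2 than with either library of its own number. With the replicate block, 54 members were tested, and 37 were higher and 1 lower in HD-het cells (30.2% and 28.7% of all genes). In HD-homo cells 10 were higher and 21 lower (22.1% and 21.3%). Between the mutant lines 5 were higher and 40 lower in HD-homo cells (34% and 32.3%). Among the members named for large changes or as the most abundant of a family, the block changed the call of Sema6d in HD-homo cells, which passed (-1.05, adjusted p = 0.0473 by edgeR's quasi-likelihood test), and of no other. Depth limits Sema3d, Ntn3, Sema5b, Sema6a, Unc5d and Robo1, with at most 4 counts over the libraries of a line.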
